A study of Mus musculus with 8 samples.

Results

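10 genes best known from meiosis and the germ line, Zcwpw1, Stag3, Smc1b, Rbm46, Mei1, Tdrd1, Sycp3, Syce2, Tex15 and Meiob, were followed in mouse tongue epithelium in which the E6-E7 oncogenes of human papillomavirus, an active form of YAP1, or both had been switched on. The 10 genes, of 32285 in the matrices, were chosen by their levels in epithelial cells with E6-E7 against those without, so levels with and without E6-E7 are given as a description, with no test. Of these, the 6 genes Zcwpw1, Stag3, Smc1b, Rbm46, Tdrd1 and Sycp3 were higher in each of the 4 libraries with E6-E7 than in each of the 4 without. Syce2 was already present without E6-E7, Mei1 was close to the limit of detection, and the levels of Tex15 and Meiob did not keep to the presence of E6-E7.

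All mice carried Krt14-CreERT, a tamoxifen-dependent Cre recombinase driven by the promoter of the basal keratin gene Krt14, and LSL-rtTA, a doxycycline-dependent activator released by that Cre. Control mice (N) had these regulatory transgenes without an oncogene, E mice added tetON_E6-E7, Y mice added tetON_YAP1S127A, and EY mice had both. By the study's methods the animals were littermates aged 8 to 16 weeks that also carried a tetON H2B-GFP reporter, tamoxifen was injected into the tongue and doxycycline was given in chow, and cells were taken 15 days after induction. There were 2 single-cell libraries per group, named N1, N2 and so on, and 1 of them, N2, is titled with a pair of animal numbers and may be a pool. Cells were sorted for viability and not for the reporter, so a library can mix cells with and without active transgenes, and the transgenes themselves are not among the measured genes.

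Epithelial cells were those in which Krt5, Krt14, Krt15, Krt13 and Krt6a together made up at least 0.5% of the molecules, counted by unique molecular identifiers (UMIs), with no UMI of the leukocyte gene Ptprc. This gave 12957 cells of 42550 barcodes, from 170 in EY1 and 415 in N2 to 4055 in E1, with median depths of 12575 to 23570 UMIs per cell. EY1 held 2454816 epithelial UMIs in all, against 55154619 in E1, so its values are the least precise. At most 5 epithelial barcodes were shared between any pair of libraries. Levels are given as CPM, the UMIs of a gene per 1000000 UMIs of these cells in a library. The keratins summed to 19570 to 23702 CPM. The myeloid marker list summed to 16.8 to 84.8 CPM in the N, E and Y libraries, to 376 in EY2 and to 1283 in EY1, of which S100a8 alone made up 370 and 1148. Lyz2, also of that list, was at 131 CPM in EY1 and at 3.89 (EY2) to 20.6 (E2) in the other libraries. The fibroblast list ran from 28.3 CPM (EY2) to 1227 (N2), of which Dcn alone made up 27.0 and 1223. No other gene of the fibroblast list passed 2.79 CPM (Col3a1 in N1). The erythroid list ran from 1.73 (EY2) to 679 (N2). The part of such RNA in the values was not tested.

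Meiosis pairs homologous chromosomes, breaks and repairs their DNA, and separates them to make haploid germ cells. Its chromosomes are held by cohesin complexes with subunits that mitotic cells do not normally use, and are zipped together by the synaptonemal complex. In somatic tissues many of these genes are kept silent by DNA methylation and by a Polycomb complex, PRC1.6, that is recruited through E2F-type and E-box promoter sequences.

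The promoter stretches that hold such sequences are shown because members that moved together could be compared by them. In the 250 bases before the RefSeq starts (GRCm38.p6), 8 of the members had an entry, with 12 start sites. The letters GCGGGA, or their reverse complement TCCCGC, were found in 4 members, and CACGTG, which reads the same on both strands, in 5. Of all genes with an entry, 18.8% held the first and 6.86% the second, and among genes expressed enough to be tested the shares were 34.0% and 9.89%. The whole window of Rbm46 (chr3:82876484-82876733, minus strand), which holds both, and 30-base stretches of other members follow, 5′ to 3′ on the strand of the gene, with the matches in capitals.
Rbm46: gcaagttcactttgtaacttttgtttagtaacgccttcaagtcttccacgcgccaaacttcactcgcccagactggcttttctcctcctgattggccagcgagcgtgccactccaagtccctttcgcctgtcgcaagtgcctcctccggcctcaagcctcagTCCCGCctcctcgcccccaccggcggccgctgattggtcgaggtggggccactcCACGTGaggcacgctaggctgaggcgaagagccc
Stag3 (chr5:138280327-138280356, plus strand): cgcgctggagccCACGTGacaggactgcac
Sycp3 (chr10:88459428-88459457, plus strand): aaggaaggaacaGCGGGAaagtgctgcttc
Sycp3 (chr10:88459511-88459540, plus strand): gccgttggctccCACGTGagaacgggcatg
Syce2 (chr8:84872212-84872241, plus strand): gagggcgctgagGCGGGAaaagacggaatg
Syce2 (chr8:84872158-84872187, plus strand): cgtttcattcagCACGTGctcggggcgggg
Smc1b (chr15:85131987-85132016, minus strand): aaaagaatttctTCCCGCgctttttttttt
Tdrd1 (chr19:56826186-56826215, plus strand): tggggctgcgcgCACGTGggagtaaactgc
The Rbm46 matches began 88 and 34 bases before its start, and the Tdrd1 match began 11 bases before the first of its starts. Zcwpw1 and Mei1 held neither run of letters in these windows. The only Mei1 window (chr15:82082226-82082475) lies inside the gene as annotated by GENCODE, and so does the only Stag3 window (chr5:138280259-138280508). The bases before the annotated starts of Mei1 at 82069996 and Stag3 at 138280240 were therefore not searched. Both Syce2 stretches shown lie after the annotated Syce2 start at 84872111. A match is a run of letters and not a binding site.

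The meiotic cohesin subunits were among the clearest members. Stag3 encodes a meiosis-specific cohesin subunit and was measured, first and second library in turn, at 0.582 and 0.114 CPM in N, 12.5 and 7.60 in E, 0.166 and 0.102 in Y, and 11.0 and 15.7 in EY. Its 4 libraries with E6-E7 lay above the other 4 without overlap, at 28.9 times the N mean in E and 99.9 times the Y mean in EY. The N libraries held 30 Stag3 UMIs together and the Y libraries 6, so the ratio to Y is imprecise. Smc1b, which encodes the meiotic counterpart of the cohesin ATPase SMC1A, stood at 0.140 and 0 in N, 11.2 and 6.69 in E, 0.0831 and 0.0508 in Y, and 11.4 and 2.24 in EY. The E libraries held 696 Smc1b UMIs against 7 in N, all 7 in N1. In EY the pooled ratio to Y was 41.0, with a 95% interval of 13.7 to 202 because the Y libraries held 3 Smc1b UMIs together. This interval, like the others given here, covers counting error only.

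Sycp3 and Syce2 belong to the chromosome axis and the synaptonemal complex. The first, a structural protein of the axis, was scarce throughout, at 0.0803 and 0.114 CPM in N, 0.834 and 0.991 in E, 0 and 0.0508 in Y, and 1.22 and 0.999 in EY. The groups with E6-E7 did not overlap those without, on 98 UMIs against 6. Syce2, a central element protein of the synaptonemal complex, was the most abundant member and the one most present without E6-E7. Its levels were 12.3 and 6.52 in N, 47.7 and 27.8 in E, 14.6 and 37.1 in Y, and 91.7 and 183 in EY. E was 4.01 times N and EY 5.31 times Y, but Y2 lay above E2, so the 4 libraries with E6-E7 did not all stand above the rest. Syce2 overlaps Gcdh on the opposite strand, as Zcwpw1 overlaps Pilra and Sycp3 overlaps Chpt1, and the strand setting of the counting is not given in the sources used here.

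Among the 10 members, Zcwpw1 had the highest level in each library with E6-E7 apart from Syce2. It acts in meiotic recombination, and its protein reads histone marks laid down by PRDM9. Zcwpw1 was measured at 1.57 and 1.26 CPM in N, 44.0 and 20.7 in E, 1.16 and 1.12 in Y, and 20.8 and 33.0 in EY, which is 22.9 times N in E and 23.6 times Y in EY. The lowest library with E6-E7 was far above the highest without. Mei1, needed for meiotic DNA breaks, had no UMI in N or Y, 0.471 and 0.578 CPM in E, and 0 and 0.216 in EY. Against 3 UMIs over both N libraries, E was at least 9.58-fold higher. The absence of Mei1 in EY1 is not informative, since 3 UMIs there would equal 1.22 CPM. Meiob, which binds single-stranded DNA during recombination, was at 0.823 and 1.6 in N, 3.50 and 2.48 in E, 0.872 and 0.610 in Y, and 0.815 and 0.621 in EY. Its E libraries lay above N, but EY was 0.969 times Y, so the label of a gene switched on by E6-E7 did not hold for Meiob in mice with active YAP.

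The last members act on germline RNA. Rbm46, an RNA-binding protein needed for meiotic entry, had 0 UMIs in both N libraries, 12.8 and 5.45 CPM in E, 0.0415 and 0 in Y, and 0.407 and 6.10 in EY. E was at least 224-fold above N, taking 3 UMIs over both N libraries as the limit. The values of Y1 and EY1 rested on 1 UMI each, so the separation of those libraries for Rbm46 is within counting error. Tdrd1, a Tudor-domain protein of the piRNA pathway, was at 0.321 and 0 in N, 3.28 and 3.80 in E, 0.125 and 0 in Y, and 6.93 and 18.6 in EY. All E6-E7 libraries of Tdrd1 were above the others, with 227 UMIs in E against 16 in N, all 16 in N1. Tex15, which takes part in piRNA-directed silencing of transposons, was at 0.783 and 1.83 in N, 2.57 and 0.496 in E, 0.789 and 0.559 in Y, and 1.22 and 7.54 in EY. E2 was the lowest of all 8 libraries for Tex15, and only EY2 stood well apart.

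**Figure D1:**
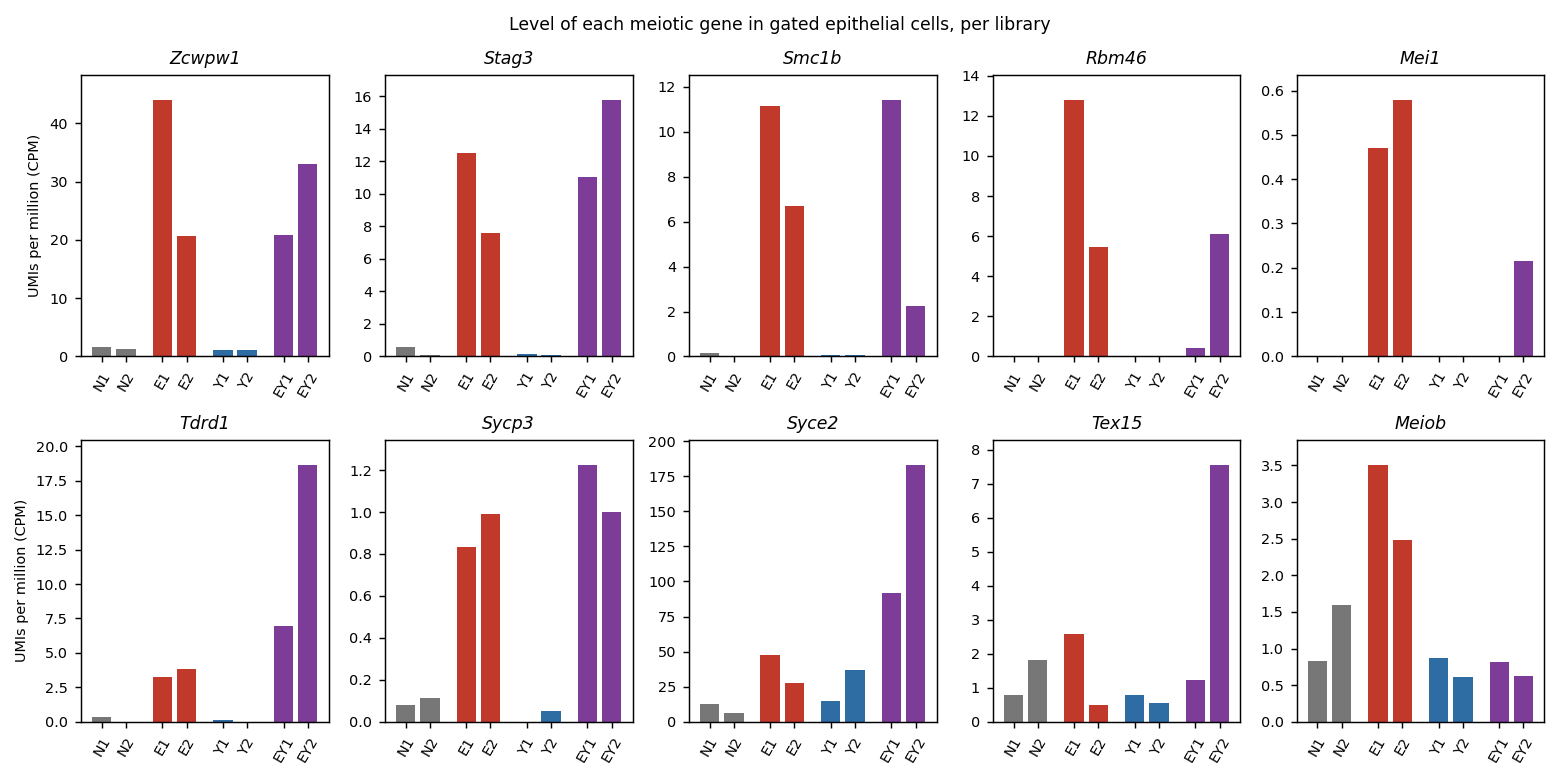
Bars give the CPM of each gene in the gated epithelial cells of each library, on a linear axis from 0 that differs between panels. For Zcwpw1, Stag3, Smc1b, Rbm46, Tdrd1 and Sycp3 every E and EY bar is taller than every N and Y bar, whereas for Syce2, Tex15 and Meiob an N or Y bar exceeds an E or EY bar.

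Over all genes tested, 2.6% had all 4 libraries with E6-E7 above all 4 without. Of the 10 members 6 did, a count that the choice of members fixes in large part. In the edgeR additive model over the 8 libraries, which estimates the effect of each transgene with the other held, all 10 members passed the filter on low counts and their median log2 fold change with E6-E7 was 4.90, against -0.03 over all 13555 genes tested. In that model 0.406% of genes were called higher with E6-E7, 6 members among them, and nothing is read from that count since the same contrast chose the genes. The estimates ran from 0.71 (SE 0.43) for Meiob and 1.65 (SE 0.80) for Tex15 to 6.28 (SE 0.68) for Smc1b and 8.81 (SE 1.04) for Rbm46, whose size rests on libraries at 0 and is no bound. In bulk sums of this kind, more positive cells and more RNA per cell cannot be told apart, and shares of cells with a UMI do not separate them either.

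The effect of active YAP was not used to choose the genes. It was called for 8.98% of all genes, and of the 10 members for Syce2 alone, which is close to that background. Syce2 rose with YAP, with a log2 fold change of 1.70 (SE 0.38, edgeR quasi-likelihood test, adjusted p = 0.0325), with both Y libraries above both N libraries and both EY libraries above both E libraries. The call was lost on leaving out N2, E1, E2, Y2, EY1 or EY2, with adjusted p of 0.0139 to 0.104 over the 8 omissions, and the estimate stayed between 1.36 and 1.98. Meiob had a log2 fold change of -1.30 with YAP (SE 0.44, adjusted p = 0.0881), and without the filter on low counts its adjusted p was 0.0414. By pair of groups its estimate was -0.61 (SE 0.50) for Y against N and -2.08 (SE 0.54) for EY against E. In EY against E, Meiob and Syce2 were called (edgeR quasi-likelihood test, adjusted p = 0.0415 and 0.0467), as were 16.4% of all genes. The E libraries took part in the choice of the members. For the other 8 members the adjusted p in the additive model was 0.364 to 0.918. With standard errors of 0.27 to 0.88, a change with YAP well above its standard error could be missed here. The additive estimate for Meiob, at -1.30 (SE 0.44), was not called.

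Whether the E6-E7 effect differed with active YAP was asked by the interaction, which shares libraries with the choice of the genes. No gene was called by edgeR (1562 had an unadjusted p under 0.05, and DESeq2 called 89), and in simulated data the test recovered 0 of 100 genes with a 4-fold interaction, so it says little. The largest member estimates were 3.82 (SE 1.37, adjusted p = 0.381) for Tdrd1 and 2.23 (SE 0.82, adjusted p = 0.389) for Stag3. Without the filter on low counts, where 672 of 21743 genes were called, Tdrd1, Stag3 and Tex15 were among them, at adjusted p of 0.000645, 0.0416 and 0.0255.

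**Figure D2:**
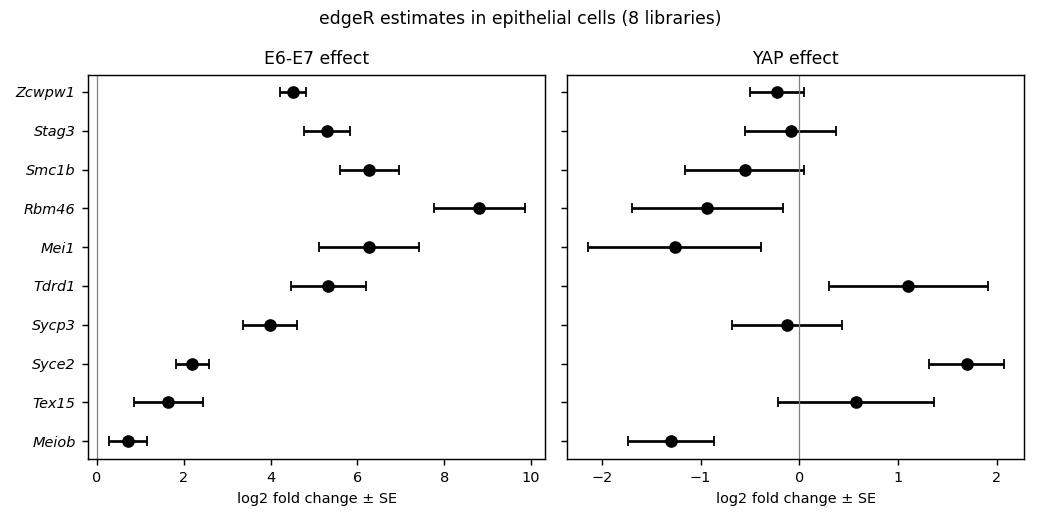
Points give log2 fold changes from the additive edgeR model over 8 libraries, and bars their standard error. With E6-E7 every estimate is above 0, and with YAP they lie on both sides of 0, with Syce2 at 1.70.

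Without thinning, Zcwpw1 was found in 32.7% and 23.0% of E1 and E2 cells and in 21.8% and 39.6% of EY1 and EY2 cells, against 1.86 to 2.65% in the N and Y libraries, and no cell of any library held more than 9 Zcwpw1 UMIs. Rbm46 was found in 14.0% and 9.40% of E cells and 0.588% and 8.58% of EY cells. For N1 and N2, where none was seen, a count of 0 allows up to 0.087% and 0.723% of cells with an Rbm46 UMI, which is no limit on cells that express it. Tdrd1 reached 22.0% of EY2 cells. Syce2 was found in 87.7% of EY2 cells but also in 37.6% of Y2 cells, and was left out of the counts over several members that follow.

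To compare libraries at 1 depth, each cell was thinned to 5000 UMIs, leaving out 28 to 61 shallower cells per library. This kept 3994 of 4055 cells in E1 but only 124 of 170 in EY1, and all thinned EY1 values rest on these. A UMI of any of the 9 members without Syce2 was then present in 2.02% and 2.10% of the cells of the N libraries, 30.3% and 16.8% of E, 1.36% and 0.822% of Y, and 16.9% and 32.2% of EY. The exact 95% intervals of the E6-E7 libraries started at 10.8% (EY1) or higher, and those of the others ended at 4.10% (N2) or lower. The EY1 share depended on the cell limits, which left 170 of the 481 EY1 cells kept without the upper ones, and it was 27.4% without upper limits and 31.8% without any. Including Syce2, the shares were 6.99% and 4.99% in N, 41.6% and 24.2% in E, 7.37% and 14.5% in Y, and 41.9% and 69.9% in EY.

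Immune cells of the same libraries, which the Krt14 promoter should not reach and which the rule did not use, gave a measure of free RNA and of other expression. Their median depth was 3372.5 UMIs in N1, 4980 in E1 and 4841 in EY2, so thinning to 5000 left out most immune cells of these libraries. Among the deeper cells kept, a UMI of any of the 9 members was held by 5% and 4.57% in N and 6.85% and 4.80% in E. In Y it was 3.52% and 3.07%, and in EY 2.24% and 3.91%. The shares in immune cells with and without E6-E7 overlapped. Zcwpw1 accounted for much of this, at 2.72 CPM (EY1) to 9.14 CPM (E1) over the 8 libraries. Tdrd1 had no UMI in the immune cells of N and Y, and 0.269, 0, 0.405 and 1.31 CPM in E1, E2, EY1 and EY2, against 3.28 to 18.6 in the epithelial cells of those libraries. Sycp3 and Smc1b, alone among the members, were higher in every immune library with E6-E7 than in every one without. They had 34 against 10 UMIs and 10 against 1. The share of all genes with that order was not computed for immune cells, so nothing is read from the number of members that had it. Mean Sycp3 levels in immune and epithelial cells were 0.539 and 0.913 CPM in E, and 2.42 and 1.11 in EY. The EY immune libraries were far apart (standard deviation 2.52), on 27 Sycp3 UMIs together, and the lower of them was at 0.636 CPM. Sycp3 was thus not limited to the epithelial gate. In the edgeR test of E6-E7 in immune cells 0% of 12723 genes were called (1516 had an unadjusted p under 0.05, and DESeq2 called 177). Only 4 members could be tested there, with log2 fold changes of 0.34 (SE 0.30) for Zcwpw1, 1.09 (SE 0.63) for Stag3, 0.53 (SE 0.36) for Syce2 and 0.71 (SE 0.45) for Tex15, and adjusted p of 0.506 to 0.658. Without the filter on low counts 1070 of 21074 genes were called there, Tdrd1 and Sycp3 among them, at adjusted p of 0.00866 and 0.00307.

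**Figure D3:**
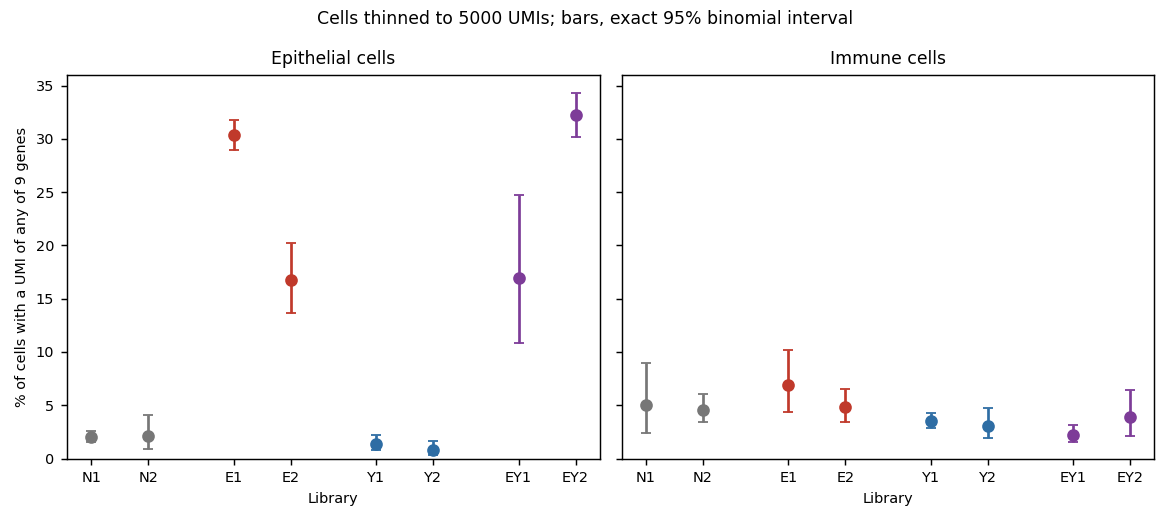
Points give the percentage of cells, thinned to 5000 UMIs, with a UMI of any of the 9 genes other than Syce2, with exact 95% binomial intervals, in epithelial and immune cells. In epithelial cells the E and EY libraries lie between 16.8% and 32.2% and the N and Y libraries at 2.10% or below, while immune cells lie between 2.24% and 6.85% in every group.

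Some cells held UMIs of several members. At 5000 UMIs, 2 or more of the 9 genes were found in 263 cells of E1, where 181 would be expected if each gene were detected independently at its share in that library. The counts were 19 against 8.16 in E2, 5 against 1.98 in EY1 and 107 against 95.2 in EY2. The ratios of found to expected were 1.45, 2.33, 2.53 and 1.12, and those of the EY libraries depended on which cells were kept. Without upper limits on genes and UMIs the ratio was 1.12 in EY1 and 1.12 in EY2, and without any limits it was 1.03 and 0.942. With a keratin gate of 2% the ratio was 2.50 in EY1, on 1 cell against 0.400 expected, and 1.0 in EY2. In E1 and E2 it stayed between 1.36 and 2.33 under these settings. Over the E6-E7 libraries Zcwpw1 and Stag3 shared 100 cells against 60.1 expected, Zcwpw1 and Smc1b 69 against 35.7, and Stag3 and Rbm46 34 against 16.2. Zcwpw1 and Tdrd1 shared 37 cells against 36.6. These counts describe each library and carry no test, since cells of 1 library are not replicates.

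Positive cells were more frequent among cells with at least 2 UMIs of a list of genes of the G1/S phase, when DNA replication begins. Of such cells, 37.2% in E1 held a UMI of the 9 members, against 11.6% of the others. The shares were 28.9% against 4.58% in E2, 21.1% against 3.45% in EY1, where the second is 1 cell of 29, and 32.8% against 24.5% in EY2. In N1, N2, Y1 and Y2 the shares among cells passing the same cut-off were 2.66%, 3.64%, 1.32% and 1.09%, far below those with E6-E7. Cells passing it were an unlike part of each library. They were 1242 of 3417 cells in N1, 110 of 381 in N2, 453 of 1249 in Y1 and 548 of 973 in Y2. With E6-E7 they were 2928 of 3994 in E1, 263 of 525 in E2, 95 of 124 in EY1 and 1841 of 1980 in EY2. The cut-off therefore does not mark a matched state between genotypes. Within G1/S cells, 2 or more members were found in 246 cells of E1 against 195 expected, 18 against 11.9 in E2, 5 against 2.32 in EY1 and 101 against 91.4 in EY2. Cells with more UMIs of basal than of differentiated markers and cells with fewer differed less in E1 and EY2, with ties left out. The shares were 29.9% against 33.7% in E1 and 31.7% against 37.1% in EY2, and those of E2 and EY1 are not given here. Splits by G2/M and interferon-stimulated genes were also made and are not given here. A link particular to G1/S is therefore not shown.

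**Figure D4:**
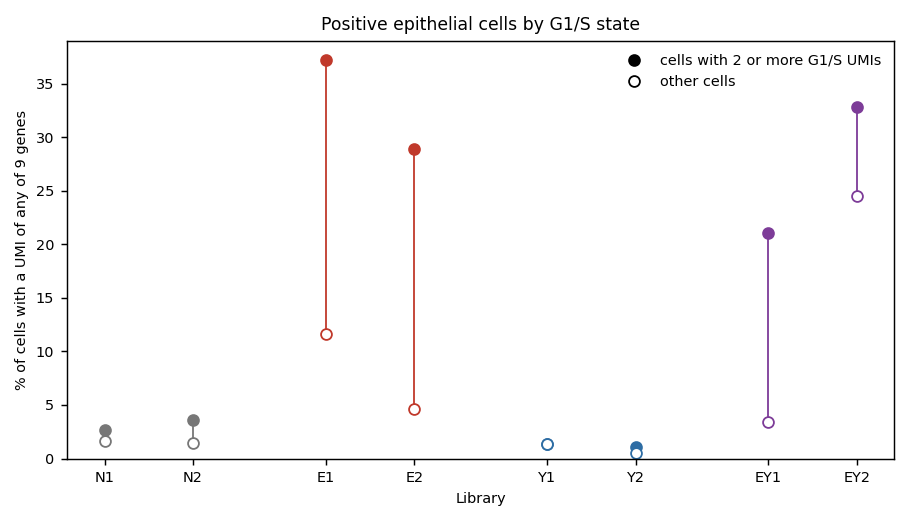
For each library, filled points give the percentage of positive cells among epithelial cells with 2 or more G1/S UMIs and open points that among other cells, at 5000 UMIs. The gap is wide in E1, E2 and EY1, narrower in EY2, and both points stay at 3.64% or below in N and Y.

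Of the 20 nearest tested neighbours of the members none was called with E6-E7 by edgeR (3 had an unadjusted p under 0.05), and their median log2 fold change was -0.07. Mepce, which lies 143 bases from Zcwpw1, was at 21.4 and 14.1 CPM in N and 22.8 and 17.7 in E, and Gpc2, 235 bases from Stag3, had a log2 fold change of -0.01 (SE 0.32). The largest was Lrat, next to Rbm46, at 2.49 (SE 1.0, adjusted p = 0.425). The members are protein-coding genes on 7 chromosomes (GRCm38). Zcwpw1 (chr5:137787798-137822621) and Stag3 (chr5:138280240-138312393) lie on chromosome 5, Smc1b (chr15:85064689-85131964) and Mei1 (chr15:82069996-82126814) on 15, and Syce2 (chr8:84872111-84888221) and Tex15 (chr8:33516738-33585582) on 8. Rbm46 is at chr3:82837228-82876483, Tdrd1 at chr19:56826209-56870012, Sycp3 at chr10:88459569-88473236 and Meiob at chr17:24804289-24839788.

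Other genes of the same processes are set beside the 0.406% of genes called higher with E6-E7 over the whole table, where 826 of 13555 had a positive estimate at an unadjusted p under 0.05. On leaving out 1 library, from 1 gene (without Y1) to 36 genes (without EY2) in all were called with E6-E7, against 55 with all 8. Of a list of meiotic cohesin and axis genes outside the members, 1 of 7 could be tested, and Rec8, a cohesin subunit, had 4 UMIs with E6-E7 and 0 without. Of 19 regulators of meiotic entry and germ cells in the matrices 6 could be tested, and Gm4969, the gene of the meiotic regulator MEIOSIN, was called higher with E6-E7, with 251 UMIs against 1 and a log2 fold change of 7.13 (SE 0.73, adjusted p = 0.0148). Stra8, whose protein acts with MEIOSIN, had 1 UMI in each. Sohlh1, a germ cell transcription factor, was called higher with YAP by 5.80 (SE 0.82, adjusted p = 0.00668). Of 25 recombination genes 13 could be tested, and none was called by edgeR (5 had a positive estimate at an unadjusted p under 0.05), and Ccdc36 had 97 UMIs with E6-E7 and 1 without (5.83, SE 0.96, adjusted p = 0.0532). Of the piRNA genes and synaptonemal complex genes outside the members, 2 and 1 could be tested and none was called (1 and 0 had a positive estimate at an unadjusted p under 0.05). Of 8 late spermatid genes none was high enough to be tested. None of the 13 PRC1.6 subunits tested was called by edgeR (3 had a positive estimate at an unadjusted p under 0.05), among them E2f6 at 0.81 (SE 0.28, adjusted p = 0.400) and Mga at 0.49 (SE 0.10, adjusted p = 0.132). Of the 12 interferon-stimulated genes 3 were called higher with E6-E7, and all 12 had their 4 E6-E7 libraries above the other 4. Of the 19 G1/S genes none was called by edgeR (14 had a positive estimate at an unadjusted p under 0.05), with a median log2 fold change of 1.18.

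Among the 9720 genes compared, those whose levels followed the members closely over the 8 libraries included Srsf7 (Pearson r = 0.980), Ifi35 (0.965), Cdkn1c (0.964) and 1700097N02Rik (0.960). All 8 points share the libraries that chose the members, and the values are a description. Cdkn1c, an inhibitor of cyclin-dependent kinases, was at 5.34 and 5.83 CPM in N, 27.4 and 13.2 in E, 6.73 and 5.03 in Y, and 11.8 and 22.1 in EY. Srsf7, a splicing factor, moved over a far narrower range, from 205 CPM in Y1 to 285 in E1.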

How the data were processed

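Viable cells sorted from mouse tongue epithelium were sequenced from the 3′ end in droplets. The 8 libraries were grouped by the genotype in the labels into N, E, Y and EY, 2 each. The deposited matrices hold whole-number UMI counts per gene and barcode, made by the authors with Cell Ranger 5.0.0 (file headers) on mm10. The labels name kit version v2 and the study's methods v3.1. Cells were kept under the study's limits (1000 to 5500 genes, no more than 30000 UMIs and 7% mitochondrial). No doublet caller was run. Epithelial cells were gated by keratins and Ptprc, and immune cells by at least 1 Ptprc UMI with the keratins under 0.5%. Members and lists were chosen with earlier results of these data known. The genes named were all members, their nearest tested neighbours, called genes of the meiotic, germline and PRC1.6 lists and the 5 genes most alike among those with at least 5 CPM in a group. Of these 5, 1 is not reported here. Others, such as Rec8, Stra8, Ccdc36, E2f6 and Mga, were named after their values were seen.

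UMIs were summed per library and fitted with edgeR 4.0.16 under R 4.3.3 (filterByExpr, TMM factors of 0.953 to 1.04, quasi-likelihood test, Benjamini-Hochberg adjustment over all genes, threshold 0.05). The additive model had both transgenes, and a model with a mean per group gave the interaction. Standard errors were obtained from the log2 fold change over the root of F. With 2 libraries per group, p-values measure the spread between these libraries. On simulated counts the test recovered 38% of 2-fold and 87% of 4-fold YAP effects, and 31% and 84% of E6-E7 effects in immune cells. Alternatives were DESeq2 1.42.0, its size factors, no filter, leaving out each library, other cell limits, a 2% gate and thinning to 2000 UMIs. Intervals are exact Clopper-Pearson (Python 3.11.15, scipy 1.17.1), and limits for 0 are 3 counts. Positions came from GENCODE M21 (GRCm38), which held 99.6% of the gene identifiers, and promoters from RefSeq.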

Additional observations from a re-analysis of the deposited data

Results flagged for a closer look

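The order of the Sycp3 levels with and without active YAP was not the same in the 2 backgrounds. Without E6-E7 both Y libraries were below both N libraries, with a difference in means of -0.0719 CPM, on 6 UMIs in all. With E6-E7 both EY libraries, at 1.22 and 0.999 CPM, were above both E libraries, at 0.834 and 0.991 CPM, and the EY1 value rests on 3 UMIs. Neither difference passed the edgeR quasi-likelihood test, with an adjusted p of 0.614 for Y against N and a log2 fold change of 0.34 (SE 0.60, adjusted p = 0.721) for EY against E. The interaction estimate for Sycp3 was 2.06 on the log2 scale (SE 1.27, adjusted p = 0.553, edgeR), so the difference between the backgrounds was not past the threshold either.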

How the results depend on the processing

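The median log2 fold change of the members with E6-E7 stayed between 4.43 and 5.16 under every alternative run. Calls over all genes depended on the setting. For YAP they numbered 1217, and 2762 with DESeq2, 3250 without the filter on low counts, 6131 without upper limits on cells, 6269 without any limits, and 324 to 1707 on leaving out 1 library. For E6-E7 they numbered 55, and 293, 765, 36 and 32 under the same alternatives, 99 with a 2% gate and 1 to 36 on leaving out 1 library. For the interaction they numbered 0, and 89, 672, 20 and 21, with 0 to 30 on leaving out 1 library. In immune cells E6-E7 gave 0, and 177 with DESeq2, 1070 without the filter, and 0 to 1 on leaving out 1 library. The cause was not tested.

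The YAP estimates of members without a call could change sign. With a 2% gate that of Stag3 became 0.0693 and that of Sycp3 0.49, and Sycp3 was 0.16 without upper limits and 0.0799 without any limits. On leaving out 1 library, Zcwpw1 ran from -0.47 to 0.0485, Stag3 from -0.55 to 0.53, Smc1b from -1.55 to 0.12, Sycp3 from -0.44 to 0.16 and Tex15 from -0.72 to 0.99. The mean share of positive cells over the E6-E7 libraries was 44.4% for any member, 24.9% at 2000 UMIs and 24.1% for the 9 members without Syce2, a set added after seeing the data. For those 9 the mean excess of cells with 2 or more members was 1.86 times against 1.40 for all 10, and the mean gap in positive cells between G1/S and other cells was 18.9 against 35.7 percentage points. No paired analysis was possible because the labels give each library its own animal number, and no number is shared between groups. Depth limits Mei1, Sycp3 and every value of EY1.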
